A study of Mus musculus with 24 samples.

Results

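The cytosolic ribosomal protein genes were followed in female mouse embryonic stem cells with and without the histone methyltransferase G9a. Rows of the gene table were taken as members by symbol (Rpl or Rps and a number with an optional a or x, plus Rplp0, Rplp1, Rplp2 and Rpsa), without use of any measured value. This gave 76 genes of 24016, 46 of the large and 30 of the small ribosomal subunit. The parental line, 16.7 Tsix +/TST (WT), and a G9a knockout made in it (KO) were sampled undifferentiated (day 0) and at day 10 of differentiation after withdrawal of LIF. Both lines therefore carry the same Tsix allele pair, and the labels do not say how many knockout clones were used or whether libraries of a group came from separate cultures, so p-values measure the spread between these libraries. There were 3 total RNA libraries per group (12 in all), depleted of ribosomal RNA, and 1 H3K9ac ChIP sample per group.

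The cytosolic ribosome translates nuclear messages. Its large subunit holds the peptidyl transferase center and the exit tunnel, and its small subunit reads the message. Ribosomal proteins are needed in near equal numbers, and in vertebrates their genes share short housekeeping promoters and messages that begin with a run of pyrimidines (the 5' TOP motif), through which growth signals acting by mTOR set their translation. Ribosome production is known to be high in stem cells and to change as they differentiate. G9a (gene Ehmt2) places mono- and dimethyl marks on lysine 9 of histone H3, and H3K9ac marks active promoters at the same residue.

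RefSeq promoter sequences (GRCm38.p6, 250 bases before to 50 after each start) were at hand for 56 of the 76 members. The 7 below run from 60 bases before to 20 bases after the start, 5' to 3' on the gene's strand. They were chosen to show the 2 members that fell in WT cells (Rpl36a, Rpl37a), 2 of the highest levels per length (Rpl4, Rpl41) and 3 members with the motifs of the class. Capitals mark ETS-family sites with the exact letters CCGGAAG (either strand), and other forms of the site were not searched. Capitals also mark, from 20 bases before the start onward, the pyrimidine stretch CTTTNC on the sense strand.
Rpl36a (chrX:134585594-134585673, plus strand): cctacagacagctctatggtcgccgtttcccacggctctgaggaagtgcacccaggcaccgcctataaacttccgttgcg
Rpl37a (chr1:72711200-72711279, plus strand): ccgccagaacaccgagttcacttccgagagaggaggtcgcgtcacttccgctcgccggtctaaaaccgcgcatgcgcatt
Rpl4 (chr9:64173327-64173406, plus strand): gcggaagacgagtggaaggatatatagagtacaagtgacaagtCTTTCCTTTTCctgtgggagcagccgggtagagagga
Rpl41 (chr10:128549149-128549228, minus strand): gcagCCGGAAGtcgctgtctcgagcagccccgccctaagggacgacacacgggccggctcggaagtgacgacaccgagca
Rps10 (chr17:27635225-27635304, minus strand): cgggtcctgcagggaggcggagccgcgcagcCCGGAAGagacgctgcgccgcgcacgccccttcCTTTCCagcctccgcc
Rpl38 (chr11:114668520-114668599, plus strand): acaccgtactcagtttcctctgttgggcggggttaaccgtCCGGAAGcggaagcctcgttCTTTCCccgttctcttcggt
Rpl35 (chr2:39005112-39005191, minus strand): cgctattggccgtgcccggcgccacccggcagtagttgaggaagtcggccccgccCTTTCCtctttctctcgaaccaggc
Over the whole 300 bases CCGGAAG was found in 23 of 56 members (41.1%) and in 12.95% of 17492 protein-coding genes. The stretch CTTTNC, searched from 20 bases before to 50 after the start, was found in 26 members (46.4%) and in 8.96% of genes. The core of YY1 sites (AAGATGGC, either strand) was found in 5 members (8.93%) and 3.57% of genes, and the GC box GGGCGG (either strand) in 34 members (60.7%) and 49.2% of genes. A TATA box (TATAAA, sense, 50 to 10 bases before the start) was in 0 of 56 members and 3.54% of genes. End letters of these motifs can overlap each other, and a match is a description of letters only. Rpl36a and Rpl37a did not hold CCGGAAG anywhere in the 300 bases, but the stretches shown of both hold the shorter CGGAAG on the other strand. Rpl36a had CTTTNC after the stretch shown.

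Values are reads per gene scaled by the authors to 8689197 per library. Whole reads could be recovered from them, and libraries held 2081129 to 30527844. Depth fell into separate classes: WT replicate 3 and KO replicates 2 and 3 of day 0 held over 10000000 reads (deep) and the other 9 libraries 2081129 to 4220140 (shallow). The 45S ribosomal RNA locus Rn45s took 0.115 to 0.129% of reads in the deep and 14.8 to 25.1% in the shallow libraries. All day 10 libraries were shallow, so depth class and day cannot be told apart beyond the shallow day 0 libraries (2 WT, 1 KO). Ehmt2 held 987, 1102 and 1375 scaled reads in WT and 557, 441 and 375 in KO at day 0, without overlap. At day 10 it held 1297, 1359 and 719 against 499.8, 758 and 628, where WT replicate 3 lay below KO replicate 2, so Ehmt2 separated the lines at day 0 and, with that library, not at day 10. The KO libraries still held reads of the gene, and the labels do not say which part was deleted. All 12 stem cell markers were read in every library. KO replicate 1 of day 0 and WT replicate 3 of day 10 stood apart, with olfactory and vomeronasal receptor genes, not defining for these cells, at 1023 and 1038 CPM (without Rn45s) against 29.6 to 361 in the other 10. Fibroblast markers summed to 24574 scaled reads in WT replicate 1 and 12762 in KO replicate 1 of day 0, against 7966 to 9537 in the other 4 day 0 and 11357 to 30400 in the day 10 libraries, with 0 to 2 of 16 markers at 0. Their part in the results below was not tested, and members' results that rest on these libraries are given with and without them. Counts and medians of the other gene lists are given with all libraries only. In bulk RNA, fewer cells of a type and less RNA per cell cannot be told apart.

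Every member was read in every library, with at least 2 recovered reads. Gene length in the table is the genomic span, so levels per kilobase are divided by a length that includes introns as well as exons. On this scale the mean of 12 libraries ran from 13.1 for Rps29 to 2229 for Rpl8, a span of 170-fold, with a median of 84.9 against 2.87 over all genes. Rpl8, a protein close to the peptidyl transferase center, stood first. It was followed by Rpl4, which lines the exit tunnel, at 1414, Rpl41, the smallest ribosomal protein, at 1055, and Rps20 at 948. Rps3, at the entry of the message channel, came next at 878. At the other end were Rpl29 at 15.8, Rpl34 at 28.2 and Rps27 at 29.3. Levels were lower in members for which RefSeq names more pseudogenes: the median was 575 per kilobase in 14 members with none named, 111 in 27 with 1 to 2, 73.7 in 17 with 3 to 5 and 68.8 in 18 with 6 or more. Across the 76 genes Spearman's rho was -0.339. How the authors placed reads with several positions is not given in the sources used here, so levels of members with processed copies are uncertain, and the part of read placement was not tested. Of the members, 21 hold 30 small nucleolar RNA rows on their own strand within their genomic span, and their median was 163 per kilobase against 62.7 in the other 55. Levels are divided by the length of that same span, and the part of these RNAs in them was not tested.

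Summed over the 76 members, the undifferentiated WT libraries came to 45671, 71923 and 70576 scaled reads, and the undifferentiated KO libraries to 38333, 64538 and 65226. At day 10 the WT sums were 59825, 59828 and 29269 and the KO sums 51192, 56324 and 48392. Members thus took 0.337 to 0.828% of all reads, and the groups overlapped in every comparison. Rn45s is part of that total. With Rn45s left out, the KO sums were 49099, 64612 and 65303 at day 0 and 68377, 67770 and 60509 at day 10. The WT sums were then 55748, 88792 and 70667, and 74624, 70331 and 34335. The mean KO share was then 0.687% at day 0 and 0.754% at day 10, against 0.645 and 0.598% with Rn45s. Its direction thus depended on the total, and groups overlapped on both. The 3 lowest sums were those of the libraries that stood apart in other ways: the 2 with receptor gene reads (38333 and 29269) and WT replicate 1 of day 0, with fibroblast marker reads (45671). Large subunit genes held 1.36 to 1.55 times the reads of small subunit genes in every library, so both subunits moved together.

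**Figure D1:**
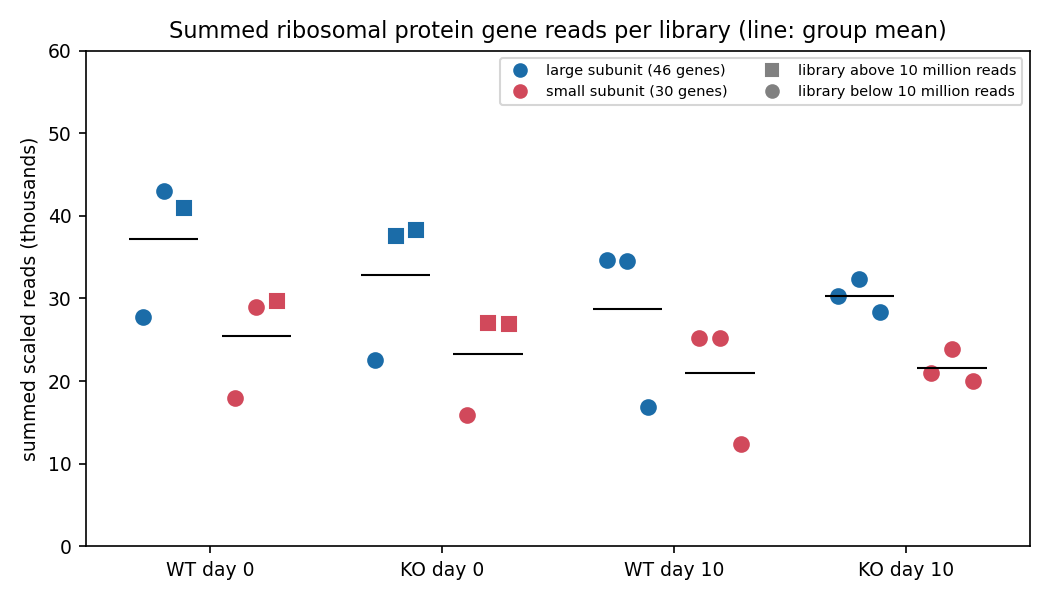
Summed scaled reads (axis in units of 1000) of large and small subunit genes in each of 12 libraries by group; squares are libraries above 10000000 reads, circles those below, and lines are group means. The lowest point of each of WT day 0, KO day 0 and WT day 10 (sums over both subunits of 45671, 38333 and 29269) is a library that stood apart in marker reads, and no group is separate from another.

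Whether loss of G9a moves these genes in stem cells was asked at day 0. In limma over 20624 genes, 0 of 76 members were called higher or lower in KO (adjusted p under 0.05), where 0.0% of all genes were called. At an unadjusted p under 0.05 there were 3 members (Rps2, Rpl14, Rps21) and 788 genes, and edgeR on recovered reads also called 0. The median log2 change of members was -0.18, with -0.19 in the large and -0.15 in the small subunit, against 0.17 over all genes. Below 0 were 59 members and above 0 were 17, where 37.5 and 62.5% of all genes were. Without KO replicate 1 the median was 0.11 against 0.10 over all genes, with 33 members below 0. Without WT replicate 1 as well it was -0.08 against 0.12, with 44 below 0, so the sign depended on the libraries used. Single members ran from -0.89 (Rps2) to 0.60 (Rps16).

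Rps2, at the entry of the message channel, had the lowest change. It held 693, 651 and 283 scaled reads in WT and 442, 206 and 218 in KO. WT replicate 3 and KO replicates 2 and 3, the deep libraries, were its 3 lowest, and the groups overlapped (log2 change -0.89, SE 0.41, limma adjusted p = 0.993). Rpl14 held 955, 1511 and 833 in WT and 511, 738 and 720.3 in KO, which did not overlap (-0.71, SE 0.32, limma adjusted p = 0.993). Rps21 held 244, 347 and 301 and 137, 207 and 203, again without overlap. Rps10, near the entry channel, held 439, 463 and 278 and 249, 253 and 257: the KO libraries were nearly equal and below every WT library. Among deep libraries alone, Rps10 held 278 in WT against 253 and 257 in KO, and Rpl14 833 against 738 and 720.3. In all, 8 members were lower in KO without overlap (Rpl3, Rpl14, Rpl23, Rpl36, Rpl37a, Rplp1, Rps10, Rps21) and 0 were higher, where 4.98% of all genes were lower and 5.5% higher in this way. Within depth classes the members' median was -0.60 in the shallow libraries (1 KO against 2 WT, with 2 of 76 above 0) and -0.09 in the deep ones (2 against 1, with 21 above 0). Over all 20624 genes the median was 0.11 in the shallow libraries, with 11234 genes above 0. In the deep ones it was 0.06, with 11293 above 0. The shallow values rest on KO replicate 1, which carried the receptor gene reads.

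At day 10 the same question was asked of differentiated cells, where all 6 libraries were shallow. Again 0 of 76 members were called, where 0.0% of all genes were, with 1 member (Rpl29) at an unadjusted p under 0.05 against 2462 genes, and 0 by edgeR. The median log2 change was 0.10 (0.09 large, 0.15 small) against -0.26 over all genes. Below 0 were 30 members and above 0 were 46, where 64.2 and 34.9% of all genes were. Without WT replicate 3 the median was -0.13 against -0.08 over all genes, with 57 below 0, so this sign rested on that library. Single members ran from -1.53 (Rpl29) to 0.95 (Rpl10). Stem cell markers had a median of 1.08 with 12 of 12 above 0 in the same comparison, and 0 called, and their part in the members' values was not tested. That median was not computed without WT replicate 3. Stem cell markers summed to 11895, 13037 and 7692 scaled reads in WT and 18842, 21398 and 18497 in KO.

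Rpl29, a small basic protein of the large subunit (chromosome 9, 106331870 to 106333898, mm9), held 24.7, 28.8 and 23.0 scaled reads in WT and 11.9, 5.48 and 8.09 in KO. All KO libraries were below all WT libraries, on a few reads each (log2 change -1.53, SE 0.57, limma adjusted p = 0.309). Rps27, a zinc-binding protein of the small subunit, held 46.3, 39.1 and 14.4 in WT and 15.9, 10.9 and 8.09 in KO, where WT replicate 3 overlapped KO replicate 1 (-1.33, SE 0.64, limma adjusted p = 0.427). Rpl34 held 108, 101 and 89.1 and 71.4, 46.5 and 64.7, without overlap. In the other direction, Rpl10, which joins the large subunit late in its assembly, held 67.9, 136 and 101 in the WT libraries against 202, 186 and 181 without G9a. The KO libraries lay close together above all WT libraries (0.95, SE 0.49, limma adjusted p = 0.45). Members without overlap were 2 higher (Rpl10, Rps29) and 3 lower (Rpl29, Rpl34, Rps24), where 5.54 and 12.6% of all genes were.

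Differentiation of the WT line was compared next. Of 76 members, 2 fell and 0 rose (limma), where 2.4% of all genes fell and 2.02% rose (4.42% in all), and edgeR called the same 2 and 7.03% of its genes. The median log2 change was -0.64 (-0.62 large, -0.72 small) against -0.20 over all genes. Below 0 were 71 members and above 0 were 5, where 59.9 and 40.1% of all genes were. Without WT replicate 3 of day 10, which carried receptor gene reads, the median was -0.44 against -0.41 over all genes, with 56 members below 0 and 20 above, so the members' distance from all genes rested on that library. The summed reads of the groups overlapped, and 24 members were lower at day 10 without overlap and 0 higher, where 11.8 and 6.63% of all genes were. Over both lines, stem cell markers summed to 27022 to 50866 scaled reads per library at day 0 and 7692 to 21398 at day 10, and differentiation markers to 837 to 1478 and 20830 to 51528, so both lists moved with day. Their part was not tested.

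Rpl36a, a large subunit protein near the site where spent tRNA leaves (chromosome X, 131120193 to 131122601, mm9, plus strand), fell most. It held 141, 188 and 156 scaled reads at day 0 and 43.2, 41.2 and 31.6 at day 10, so every day 10 library was well below every day 0 library. Its mean went from 162 ± 23.7 (SD, n = 3) to 38.7 ± 6.20 (SD, n = 3), a log2 change of -2.04 (SE 0.41, limma adjusted p = 0.0109). Over 20 other settings it ran from -2.13 to -1.83 and was called in 18, the exceptions being fits on the shallow libraries (adjusted p = 0.0551 in limma) and on the WT groups alone (0.0765). Rpl37a, a zinc-binding protein of the large subunit (chromosome 1, 72757834 to 72760387, mm9), held 212, 138 and 169 at day 0 and 52.5, 59.7 and 77.6 at day 10, also without overlap. Its log2 change was -1.43 (SE 0.37, limma adjusted p = 0.0415), and it was called in 9 of 20 other settings. The call was lost without any 1 of WT replicates 1 to 3 of day 0 or 1 and 2 of day 10, with log2 values of -1.58 to -1.27 and adjusted p from 0.0503 to 0.132.

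The next lowest members were Rps28, Rps27a and Rpl10, none of which passed. Rps28, at the exit of the message channel, held 117, 117 and 143 at day 0 and 24.7, 76.2 and 31.6 at day 10 (log2 change -1.65, SE 0.54, limma adjusted p = 0.116). Its 3 day 0 values were close together and all above day 10. Rpl10 held 258, 188 and 518 and then 67.9, 136 and 101 (-1.58, SE 0.49, limma adjusted p = 0.0956). Toward the high end were Rpl41 at 0.20 and Rpsa, the laminin receptor-like protein of the small subunit, at 0.04. Rpl41 held 1012, 1048 and 720.4 at day 0 and 1562, 1536 and 486 at day 10, where WT replicate 3 was far below its partners.

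In the KO line 1 of 76 members fell and 0 rose, where 6.46% of all genes fell and 2.43% rose (8.89% in all), and edgeR called the same gene and 7.03% of its genes. The median log2 change was -0.50 (-0.35 large, -0.58 small) against -0.68 over all genes (-0.29 against -0.49 with Rn45s left out of the total). Below 0 were 57 members and above 0 were 19, where 75.4 and 24.5% of all genes were. The gene was Rpl29, with 37.4, 50.8 and 52.7 scaled reads at day 0 and 11.9, 5.48 and 8.09 at day 10, and a mean that went from 47.0 ± 8.38 (SD, n = 3) to 8.49 ± 3.23 (SD, n = 3). Its log2 change was -2.38 (SE 0.57, limma adjusted p = 0.027). In WT the same gene held 35.4, 50.1 and 57.2 and 24.7, 28.8 and 23.0, a log2 change of -0.85 that did not pass, and the difference between the lines, -1.53, had an adjusted p of 0.596 in limma. Leaving out KO replicate 2 or 3 of either day lost the call, with log2 values of -2.38 to -2.13 and adjusted p from 0.0895 to 0.0954. It was also lost with a depth term (limma adjusted p = 0.0569) and with shallow libraries only (0.236). Its recovered reads per day 10 KO library were as few as 2.

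Members that did not pass in KO included Rps28, with 62.3, 182 and 148 and then 59.5, 30.1 and 32.4 (log2 change -1.60), and Rpl36a, with 77.8, 141 and 159 and then 51.6, 41.1 and 48.5 (-1.34, limma adjusted p = 0.0551). Both were lower in every day 10 library. Rps27a, made as a fusion of ubiquitin and a small subunit protein, held 40.5, 195 and 173 and then 15.9, 43.8 and 53.9 (-1.70). Here KO replicate 1 of day 0 lay within the day 10 range. In the other direction Rps2 held 442, 206 and 218 and then 658, 619 and 499 (1.12, SE 0.41, limma adjusted p = 0.0871), with every day 10 library above day 0. Rpl41 held 978, 797 and 894 and then 1476, 1763 and 1116 (0.69), also without overlap. Without overlap there were 4 members higher (Rpl8, Rpl14, Rpl41, Rps2) and 14 lower, where 8.93 and 36.5% of all genes were.

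These counts moved with the libraries in the fit. Without KO replicate 1 of day 0 alone, 17 members were called in KO (16 lower, Rps2 higher), or 22.4%, where 14.2% of all genes were. Without WT replicate 3 of day 10, 5 were (all lower), or 6.58% against 22.2%. Without both libraries with receptor gene reads there were 30 (29 lower, Rps2 higher), or 39.5% against 27.1%. Without both with fibroblast marker reads there were 26 (25 lower, Rps2 higher), or 34.2% against 17.7%. Where KO replicate 1 was left out the KO day 0 group held deep libraries only, against shallow ones at day 10. With shallow libraries only, the KO day 0 group was 1 library: the median was 0.20 against -0.44 over all genes, and 31 members were below 0. In WT 5 members (6.58%) were called without the libraries with receptor gene reads, against 10.7% of all genes, and 16 (21.1%) without those with fibroblast marker reads, also against 10.7%. Without KO replicate 1 of day 0 alone there were 6 (7.89% against 6.83%). With shallow libraries only there were 0 in WT, against 2.85% of all genes. The WT median was then -0.54 against -0.17 over all genes, and 71 members were below 0. The difference between the 2 time changes (KO minus WT) was called for 0 of 76 members and 0.0% of all genes, with 0 members and 1795 genes at an unadjusted p under 0.05 and 0 by edgeR. Its median was 0.26 against -0.36 over all genes, with 20 members below 0 and 56 above, where 66.1 and 33.9% of all genes were. The median was -0.31 against -0.27 without the libraries with receptor gene reads. The time changes of the lines, which share no library, correlated across the 76 members at r = 0.736 (rho = 0.783) over all libraries and at r = 0.478 over the shallow ones. By the authors' deposited table, p was under 0.05 for 0, 1, 9 and 22 members in KO against WT at day 0 and day 10 and in time in WT and KO, and for 3.27, 10.8, 9.16 and 32.3% of all genes.

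**Figure D2:**
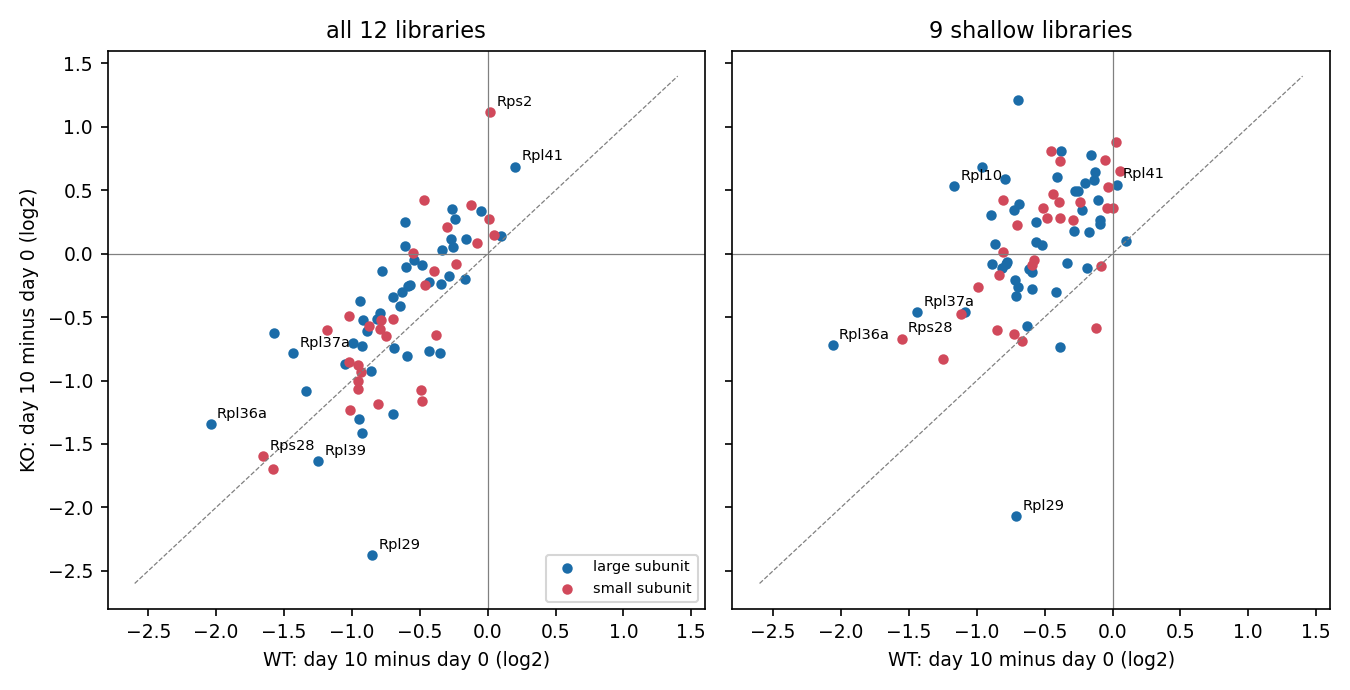
Log2 change from day 0 to day 10 of each of 76 members in WT (horizontal) and KO (vertical), from a fit of all 12 libraries (left) and of the 9 shallow libraries (right); the dashed line marks equal change. On the left 57 members lie below 0 in both lines, and on the right 31; Rpl36a is lowest in WT and Rpl29 in KO on both sides.

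The depth classes were then compared. Across the 76 members, log2 values of 2 libraries of different groups but the same depth class correlated at 0.939 to 0.993 (31 pairs), and 2 libraries of the same group but of different classes at 0.874 to 0.941 (4 pairs). These are descriptions over genes of very different level, which are not replicates. At day 0, where both classes occur, members were higher in deep libraries by a median of 0.28 in WT (log2, 1 deep against 2 shallow) and 0.71 in KO (2 deep against 1 shallow), against 0.12 and -0.11 over all genes. The shallow KO library is replicate 1, with receptor gene and fibroblast marker reads, and the KO value cannot be given without it. Of the shallow WT libraries, replicate 1 is the one with fibroblast marker reads, and without it the WT median was 0.17 against 0.11 over all genes. The WT and KO differences share no library, and across the 76 members they correlated at r = 0.828 (rho = 0.835), and at r = 0.657 without WT replicate 1. For 9806 genes with a mean log2 level of at least 100 scaled reads the same r was 0.875, and for 77 mitochondrial ribosomal protein genes 0.803. The median difference of the 9806 genes was 0.33 in WT and 0.46 in KO, and that of the mitochondrial list 0.82 and 1.11. The pattern was thus not confined to the members, and it was larger in the mitochondrial list.

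Rpl39, a short protein of the exit tunnel, had the highest ratio between the classes in KO. It held 262, 1077 and 1699 scaled reads in WT and 218, 1794 and 1817 in KO at day 0, so the deep libraries (the last of the WT and the last 2 of the KO values) were the 3 highest. Their level was 3.19-fold the shallow level in WT (1.58-fold without WT replicate 1) and 8.25-fold in KO, where the shallow level is that of replicate 1. Rps20 held 286, 1077 and 2728 and 476, 2404 and 2325, or 4.90-fold (2.53-fold without WT replicate 1) and 4.96-fold. In Rps27a the ratios were 3.39 (1.93 without WT replicate 1) and 4.45, and in Rps6, the target of S6 kinases, 2.95 (3.22) and 4.64. Rps2 went the other way, at 0.422 (0.436 without WT replicate 1) and 0.480 of the shallow level, followed by Rpl27 at 0.591 (0.515) and 0.723. In all, 57 of 76 members were above 0 in both lines and 8 below 0 in both, where 8263 and 7713 of 20624 genes were. Above 1 log2 unit in both were 13 members (17.1%). The same share was 10.2% of all genes, 13.8% of the 9806 genes of higher level and 32.5% of mitochondrial ribosomal protein genes. The change of Rpl39 from day 0 to day 10 in KO (log2 -1.64) became 0.39 when only shallow libraries were used, and that of Rps2 went from 1.12 to 0.41. What sets the depth classes apart besides depth and Rn45s was not tested.

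**Figure D3:**
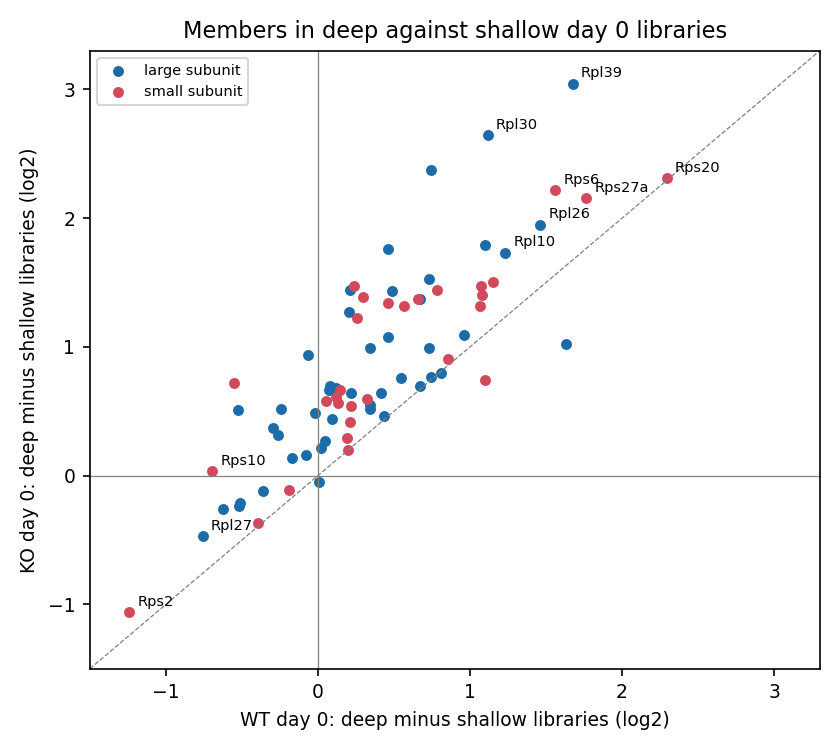
Log2 difference between deep and shallow day 0 libraries of each member in WT (horizontal, 1 deep and 2 shallow) and KO (vertical, 2 deep and 1 shallow); the dashed line marks equal difference. Rpl39, Rps20, Rps27a and Rps6 lie far up and to the right, Rps2 lies lowest, and r is 0.828 over 76 members.

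Levels were also taken relative to the median member of the same library, which removes what all members share. On this scale Rpl36a (-1.40) and Rps28 (-1.01) were lower at day 10 in WT without overlap, and 2 members, among them Rplp1, were higher, where 3.17% of all genes were lower and 18.6% higher. In KO 9 members were lower, led by Rpl29 (-1.88), and 19 higher, led by Rps2 (1.61) and Rpl41 (1.18), where 23.5 and 17.9% of all genes were. Rpl36a and Rps28 were among the lower members in both lines. Between KO and WT on this scale, 3 members were higher (among them Rpl21 and Rps16) and 2 lower (Rps7, Rps21) at day 0, where 8.08 and 2.37% of genes were. At day 10, 2 were higher (Rpl10, Rps4x) and 5 lower (Rpl29, Rpl31, Rpl34, Rpl35a, Rps27), where 5.88 and 11.0% were. Without the libraries with receptor gene reads, 16 members were higher and 9 lower in KO at day 0, where 19.8 and 13.1% of all genes were. At day 10 these were 7 and 9 members, against 24.6 and 12.1%. Over time there were 16 and 9 members in WT, against 20.6 and 12.7%, and 28 and 31 in KO, against 33.4 and 32.6%. Groups of 2 libraries overlap less often than groups of 3.

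H3K9ac was mapped in 1 sample per group, so its values carry no replicate check. A peak in the authors' list overlapped the promoter (1 kb either side of the start, mm9) of 75 of 76 members in WT at day 0, all but Rpl22, and of 76 of 76 in the other 3 samples. The 95% Wilson interval, for counting error only, was 92.9 to 99.8% in the first and 95.2 to 100% in the others. Over all genes 49.7, 40.0, 50.8 and 52.1% of promoters had a peak in WT day 0, KO day 0, WT day 10 and KO day 10. The median fold enrichment of member peaks, the authors' own value per peak, was 3.75, 5.05, 5.76 and 5.81 in that order, at percentiles 89.0, 95.4, 87.5 and 88.5 of all promoter peaks of the same sample. Promoters of mitochondrial ribosomal protein genes had medians of 3.18, 3.23, 4.52 and 4.41. Folds of different samples depend on each sample's depth and control and were not compared. Subunits were close, with 3.71 (large) and 3.82 (small) in WT at day 0.

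Member peaks were also wide and set downstream of the start. Their median width was 3515, 2599, 2895 and 3074 bases in the same order, against 1611, 1411, 1851 and 1819 over all promoter peaks. The peak center lay downstream of the start in 88.0, 89.5, 85.5 and 77.6% of members, against 65.0, 65.6, 66.8 and 67.6% of all genes with a peak. Rps15 had the highest fold in WT on both days, 6.49 and 10.8, and was second in KO at day 10 at 8.66, behind Rpl13 at 8.87. Rps28 led in KO at day 0 at 7.85. The lowest folds were those of Rps27 in KO at day 0 (2.81), Rplp1 in WT at day 10 (3.63) and Rpl36a in KO at day 10 (3.64). The 4 X-linked members, singled out after their values were seen, held ranks 70, 71, 74 and 75 of 76 by fold in WT at day 10 (Rpl36a 4.53, Rpl39 4.42, Rpl10 4.03, Rps4x 3.85) and ranks 70, 71, 75 and 76 in KO at day 10 (Rps4x 4.20, Rpl10 4.18, Rpl39 3.73, Rpl36a 3.64). At day 0 their ranks ran from 28 to 69 in WT and 27 to 69 in KO. Across members, fold and RNA level per kilobase had a rho of -0.046 to 0.136 in the 4 samples. The order of members was partly shared between samples, with rho from 0.381 (WT day 0 and KO day 10) to 0.608 (WT and KO at day 10). With a stricter peak threshold (-log10 q of at least 5) 4, 31, 56 and 58 members kept a promoter peak in the 4 samples, where 0.275, 1.6, 9.64 and 10.6% of all promoters did.

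**Figure D4:**
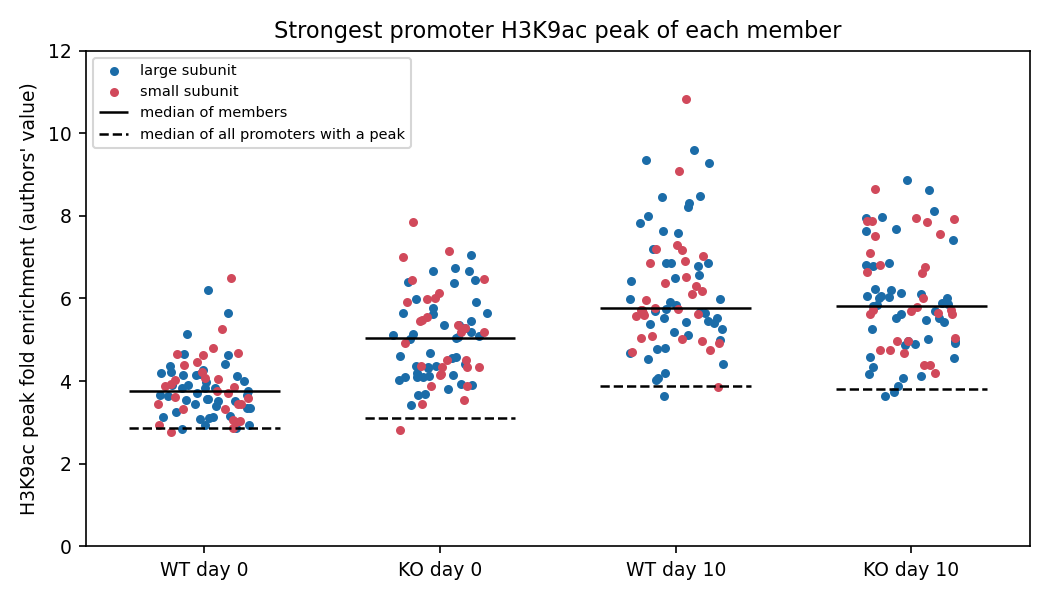
Fold enrichment (the authors' value) of the strongest H3K9ac peak at each member's promoter in the 4 samples; solid lines are medians of members (3.75, 5.05, 5.76 and 5.81) and dashed lines medians of all promoters with a peak. In each sample nearly all members lie above the median of all promoters with a peak.

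The cells are hybrids, and the authors' allele table splits reads into mus and cas counts, the 2 parental genomes as its columns name them. Of 76 members 54 had at least 10 allelic reads in every library. Neighboring genes within 5 Mb fell into 2 kinds of region: for 32 members the neighbors' median mus share was 97.7 to 99.4%, and for the other 22 it was 35.0 to 56.2%. In the first kind the members' own median was 98.8%, but 6 members were at or below 90%. Rps14 held a mus share of 31.9% of 10120 allelic reads where its neighbors' median was 99.2%, and lay between 25.1 and 31.0% in the deep and 38.5 and 62.4% in the shallow libraries. Shares summed over libraries are mostly those of the deep day 0 libraries. Rpl37 was at 71.0% in the sum, with at least 74.7% in each deep and at most 66.7% in each shallow library (28.1% over WT and 33.3% over KO at day 10), so its sum does not describe the latter. Rpl24 (74.8%) lay between 70.8 and 100%, Rpl32 (77.4%) between 56.5 and 95.4%, Rps9 (79.0%) between 73.2 and 90.6% and Rpl37a (87.1%) between 45.5 and 100% in single libraries.

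In the second kind of region 7 of 22 members lay between 40 and 60% mus, 6 below and 9 above. Rpl4 was at 29.8% of 47709 reads (neighbors 52.0%) and lay between 27.3 and 34.7% in all 12 libraries. Rps3 was at 37.0% (neighbors 49.3%) and Rpl19 at 27.2% (neighbors 52.4%). Rplp0, the base of the ribosomal stalk, was at 84.7% (neighbors 50.9%) with 80.3 to 88.4% in single libraries. For Rpl4, Rplp0 and Rps3 each library lay on the same side of the neighbors' median. How reads with several positions were assigned to alleles is not given in the sources used here, and its part in these shares was not tested.

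**Figure D5:**
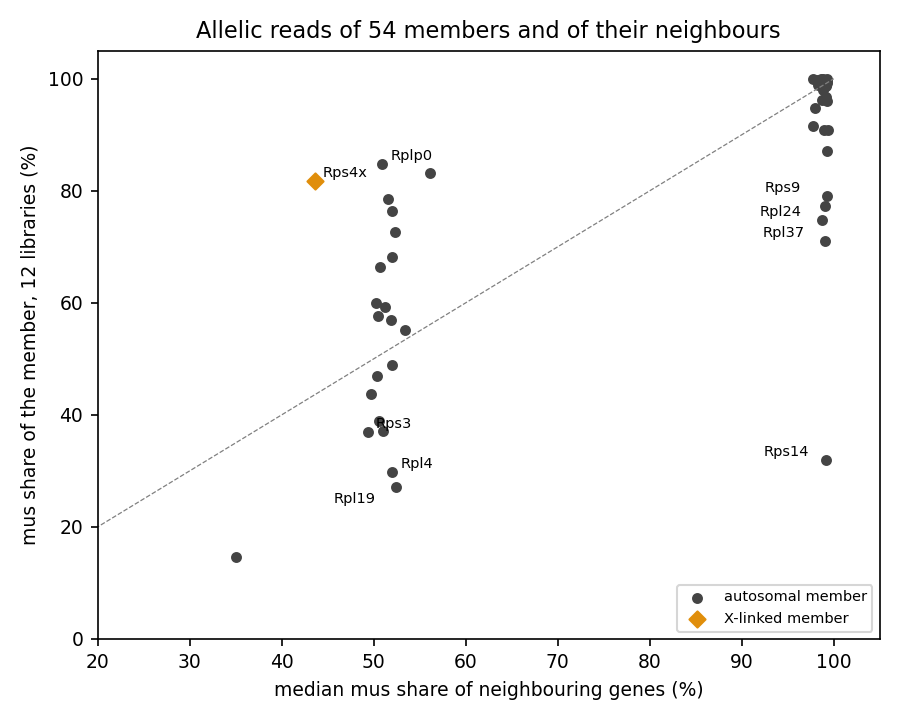
Mus share of allelic reads (%) of 54 members, summed over 12 libraries (vertical), against the median share of neighboring genes within 5 Mb (horizontal); the dashed line marks equal shares and the diamond is the X-linked Rps4x. Rps14 (31.9%) lies far below neighbors at 99.2%, and Rplp0 (84.7%) and Rps4x (81.7%) far above neighbors near 50.9 and 43.6%.

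Of the 4 X-linked members, Rps4x was the 1 with at least 10 allelic reads in every library. At day 0 the WT libraries had mus shares of 88.2, 92.2 and 83.6% and the KO libraries of 86.4, 78.9 and 79.2%. At day 10 these were 81.4, 74.3 and 97.4% against 76.8, 88.9 and 85.7%. All 12 values were above its neighbors' median of 43.6%, and no groups were apart: in 6 comparisons of Rps4x and Rpl10 the exact permutation p was 0.2 to 1.0 (two-sided, adjusted 0.84 to 1.0), where 3 against 3 libraries cannot go below 0.1. Rpl10 could be compared where its 6 libraries had 10 reads, and was at 62.7 ± 3.69% in KO and 52.2 ± 18.6% in WT at day 0 (SD, n = 3). Rpl39 held 91.6% mus over 571 allelic reads, with none in 2 libraries. Rpl36a had 11 allelic reads in all, too few to place.

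Other genes of the ribosome were given from lists. Of 9 tested genes of a list of paralogs, Rpl10l, the retrocopy of Rpl10, fell in WT, with 99.0, 62.6 and 232 scaled reads at day 0 and 43.2, 20.6 and 5.75 at day 10 (log2 change -2.62, SE 0.66, limma adjusted p = 0.0367). It was higher in deep than in shallow libraries at day 0. Rpl39l fell in KO, from 59.2, 126 and 119.9 to 3.97, 10.9 and 2.70 (-4.01, SE 1.04, limma adjusted p = 0.034). Its day 10 KO values rest on 6 recovered reads in all. Rpl39l too was higher in deep than in shallow libraries at day 0. Rpl10l was called in 11 and Rpl39l in 12 of 20 other settings. The call was lost for both with shallow libraries only, at limma adjusted p = 0.209 for Rpl10l and 0.244 for Rpl39l. That of Rpl10l was also lost with no filter, TMM scaling, the replicate block and the WT groups alone (0.0509 to 0.167), and without WT replicate 1 or 3 of day 0 or 2 or 3 of day 10 (limma adjusted p from 0.0687 to 0.169, log2 from -2.72 to -1.88). That of Rpl39l was also lost with a pseudocount of 0.1 (0.0841), with a depth term (0.0940), and without KO replicate 2 or 3 of day 0 or any KO replicate of day 10 (0.0727 to 0.124, log2 from -4.51 to -3.66). The other 7 (Rpl3l, Rpl7l1, Rpl22l1, Rpl36al, Rps3a1, Rps4l, Rps27l) did not pass in any comparison. All 9 lay below 0 with time in both lines, where 59.9% of all genes did in WT and 75.4% in KO. Rps3a1 is itself the gene of a small subunit protein and not a paralog, and its symbol falls outside the rule for members. Of ribosomal proteins under other names, Gnb2l1 (RACK1) had log2 changes with time of -0.02 in WT and 0.39 in KO, and Fau of -0.75 and -1.40, neither of which passed.

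The counts below stand beside all genes, of which 2.4% fell and 2.02% rose in WT and 6.46 and 2.43% in KO. The medians over all genes were -0.20 in WT and -0.68 in KO. Ribosome biogenesis factors build the subunits from RNA and protein. In WT 5 of 78 fell and 0 rose (median log2 change -0.67), among them Ubtf and Rrn3, which start RNA polymerase I transcription (-1.62 and -1.39, limma adjusted p = 0.0143 and 0.0318), Nol6 (-1.25) and Dkc1, the pseudouridine synthase (-2.10). In KO 3 of 78 fell (Taf1b, Ddx10, Rpf2; median -0.43). Small nucleolar RNA host genes fell in 3 of 11 cases in WT (Snhg1, Snhg7, Snhg12) and 2 of 11 in KO (Snhg6 and 2610203C20Rik). Of 22 translation factors with 5' TOP messages and 23 regulators of these genes, 0 passed with time in either line, with medians of -0.41 and -0.34 in WT and -0.22 and -0.27 in KO. Of 77 mitochondrial ribosomal protein genes, 1 (Mrps5) fell in WT and 0 in KO (medians -0.49 and -0.57). Between KO and WT, 0 genes of any of these lists passed on either day, where 0.0% of all genes did. Biogenesis factors were above 0 in 75 of 78 cases at day 10, where 34.9% of all genes were (median 0.51 against -0.26 over all genes). These values include WT replicate 3 of day 10, with its receptor gene reads, and were not computed without it. For comparison, 9 of 12 stem cell markers fell in WT and 5 of 12 in KO, and 7 and 8 of 16 differentiation markers rose.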

How the data were processed

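Total RNA was depleted of ribosomal RNA and sequenced in 12 libraries, and H3K9ac was mapped by ChIP in 4 samples. TopHat and HOMER, for RNA, and Novoalign and MACS2, for ChIP, with the mm9 build, are named in the submitters' processing notes. Their versions and parameters are not given in the sources used here. In the gene table the authors scaled the reads of each library to 8689197, a normalized signal counted over the gene's genomic span (length equals span in 99.28% of rows), per the file headers. Whole reads were recovered from it (100.0% of values whole within 0.006). The allele table holds read counts per parental genome, deposited by the authors. The peak lists hold the authors' fold enrichment and -log10 q-value for each peak, per the file headers. The table also holds the authors' log2 fold changes and p-values of their own comparisons.

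Members and gene lists were chosen with earlier results of these data known. Scaled reads were tested as log2(value + 1) with limma 3.58.1 (R 4.3.3; trend and robust settings), in 1 model of all 12 libraries, for the 20624 genes above 1 scaled read in at least 3 libraries, with Benjamini-Hochberg adjustment at 0.05. A fold change is on the log2(value + 1) scale, which understates changes of low genes. edgeR 4.0.16 (quasi-likelihood) and DESeq2 1.42.0 on recovered reads were alternatives, as were other pseudocounts, filters and scalings, the replicate block, a depth term, fits of fewer groups or libraries, and each library left out. The edgeR test held 75 members, without Rps29. The limma and edgeR fits were run on simulated data for the WT comparison over time. Those data held no effect of depth class on single genes, so the check does not cover it. Named members are those called, the highest and lowest in each comparison, the highest and lowest levels, and the X-linked ones. Levels per kilobase use the genomic length in the table, as coding lengths were not used here. Same-numbered replicates did not deviate together throughout (correlations from -0.40 to 0.579), so replicates were not paired. Allele shares were compared by exact permutation over libraries. Promoter sequences came from RefSeq (GRCm38.p6), and gene positions are those of the deposited table (mm9). H3K9me2 samples and 2 input samples whose labels disagree on the day were not used. Motifs, peaks and alleles were handled with Python 3.11.15 (pandas 2.3.3, numpy 2.4.6, scipy 1.17.1). A few genes are not reported by name here.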

Additional observations from a re-analysis of the deposited data

How the results depend on the processing

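In both KO against WT comparisons and in the difference of the time changes 0 members were called under every alternative. In what follows the share of all genes called in the same fit stands in parentheses. Calls in WT over time (2) became 1 with TMM (3.74%) or RLE scaling (4.8%), 3 with DESeq2 (8.01%), 4 with depth class as a term (6.16%), 5 without the libraries with receptor gene reads (10.7%), 16 without those with fibroblast marker reads (10.7%), and 0 with the WT groups alone (1.93%) or with shallow libraries only (2.85%). Calls in KO over time (1) became 2 with a pseudocount of 0.1 (11.4%), 5 with DESeq2 (14.7%), 6 with the KO groups alone (21.5%), 30 (27.1%) and 26 (17.7%) without the libraries named above, and 0 with shallow libraries only (0.656%). With the depth term 1 was called (13.9%), Rps10 and not Rpl29. With the replicate block they were 1 in WT (4.12%) and 2 in KO (7.82%). Same-numbered libraries share only a number, and the block changed no call in the other comparisons. The members' median became -0.60 at day 0 (KO against WT) with shallow libraries only. The median in KO over time became 0.20 with shallow libraries only and 0.0069 with the depth term. That of the difference of time changes became 0.66 with shallow libraries only and -0.31 without the libraries with receptor gene reads. The log2 change of Rpl39 in KO became 0.39 with shallow libraries only and was the 1 reversal among the 24 gene changes followed through the settings, which leave out small changes such as those of Rpsa or Rpl41 in WT. Leaving out 1 library of the compared groups, calls ran from 1 to 2 in WT and 0 to 17 in KO over time and stayed at 0 to 0 elsewhere. Medians ran from -0.31 to 0.11 (day 0) and -0.13 to 0.18 (day 10) in KO against WT, -0.79 to -0.44 in WT and -0.75 to -0.31 in KO over time, and 0.03 to 0.39 for the difference. Members without overlap in relative level ran from 5 to 25, 9 to 21, 7 to 25 and 30 to 59, since smaller groups overlap less often. Mean summed reads ran from 58123 to 71249 (WT) and 51435 to 64882 (KO) at day 0, and 44547 to 59827 and 49792 to 53758 at day 10, where the KO mean was 65552 when Rn45s was left out of the total. Differences in mus share, in percentage points, ran for Rpl10 from -0.04 to 17.7 (KO against WT, day 0) and -18.8 to 0.1 (KO over time), and for Rps4x from -8.96 to -4.36 and -5.64 to 5.94 in KO against WT and -10.1 to 1.44 and -0.25 to 5.8 over time in WT and KO. The reversed values were -0.04, 0.1, 2.92, 5.94, 1.44 and -0.25. Promoter peaks at -log10 q of at least 5 were left at 4, 31, 56 and 58 members. With at least 50% of the window covered 67 members had a peak in each day 0 sample, and with a 2 kb window 76 had one in WT at day 0. Where no alternative's own construction shows it, the cause was not tested. Shallow libraries held as few as 2 reads of a member, which limits Rpl29, Rps27 and Rps29.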
